A study of Mus musculus with 6 samples.

Results

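Guanylate-binding proteins (GBPs) are large GTPases, and 10 genes of the family, Gbp2 to Gbp11, were followed in the kidneys of LPR and MRL mice. A gene belonged to this set when a probe on the array that was not a control carried its name, and every probe of each gene was kept. This gave 12 probes for 10 of the 36870 gene names on the array, because Gbp5 and Gbp8 had 2 probes each. Whole kidneys came from 3 MRL/MpJ (MRL) mice and 3 MRL/MpJ-Fas lpr/lpr (LPR) mice, all females at 6 months of age with no treatment named, and each mouse gave 1 array without any pooling stated. Both groups share the MRL/MpJ background, and LPR mice carry in addition the spontaneous lpr mutation of the death receptor gene Fas in every cell. LPR mice are used as a model of lupus nephritis. The tissue was not separated into cell types, so in these bulk samples more cells of a type and more RNA per cell cannot be told apart. Single-colour intensities were taken to the log2 scale relative to the 75th percentile of each array, and a log2 change is LPR minus MRL with its standard error (SE) from limma.

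GBPs belong to the dynamin superfamily and are among the genes that interferon gamma induces most strongly. They assemble on the membranes of bacteria and of the vacuoles that hold intracellular parasites, expose these to other defence proteins, and help the caspase-11 inflammasome (Casp4 in mice) to sense bacterial lipopolysaccharide. The mouse genes lie in a cluster on chromosome 3 and another on chromosome 5, and Gbp2 and Gbp5 carry a signal for prenylation, a lipid anchor that ties a protein to membranes.

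The array sequences set limits on which gene a signal belongs to, and those on which results turned are shown from 5′ to 3′. Both Gbp5 probes lie on the plus strand of chromosome 3 in build mm9, the brighter probe (A_55_P2145059, chr3:142181426-142181485) being listed for Ensembl and GenBank transcripts with no RefSeq entry and the dimmer probe (A_52_P327664, chr3:142184779-142184838) for the RefSeq transcript NM_153564. Both Gbp8 probes lie on the minus strand of chromosome 5, and the annotation of the brighter probe (A_51_P327405, chr5:105443767-105443826) lists transcripts of Gbp8 and Gbp11, while that of the dimmer probe (A_55_P2179599, chr5:105443951-105444010) lists Gbp8 alone. The first 30 bases of the dimmer Gbp5 probe and of both Gbp8 probes, each 60 bases long, are given. The Gbp9 probe (A_52_P344949, chr5:105523238-105523479, minus strand) is given whole, since its 60 bases span 242 bases of the genome and thus cross a splice junction, and since its annotation lists transcripts of Gbp4, Gbp6, Gbp9 and Gbp10.
Gbp5, dimmer probe: gtaaagtttaaaaatgatttctcactattc
Gbp8, brighter probe: cacacagaagacatagaacagctcctacat
Gbp8, dimmer probe: gagaagttgcttcatttattttttctccca
Gbp9 probe: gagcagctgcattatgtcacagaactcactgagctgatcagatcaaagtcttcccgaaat
With the Gbp10 probe, which lists transcripts of Gbp10 and Gbp6, 3 of the 12 probes named transcripts of more than 1 family gene. Their signals are given under the name on the array and cannot be divided between the genes. No probe under another gene name listed a transcript of a member.

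The array data fitted the labels for tissue, with the 6 tubule marker genes well above background in all mice. Spots well above background made up 69.6% to 70.6% of an array in MRL mice and 70.7% to 73.5% in LPR mice, and no spot was saturated. All 6 arrays were on 1 slide and scanned once, with the 3 MRL mice and LPR 1 in its first row and LPR 2 and LPR 3 in its second. Fas, the mutated gene, gave a log2 change of -0.47 (SE 0.24, adjusted p = 0.234) with its brighter probe. Its dimmer probe exceeded background in 0 of 3 MRL mice and was called higher in the limma fit (log2 change 1.89, adjusted p = 0.0338). With signals under the detection limit of an array lifted to that limit, the rise was at least 1.47-fold. In limma on such lifted signals it did not pass (log2 change 0.56, adjusted p = 0.112). The call of the dimmer probe was lost in 11 of 20 alternatives. With normexp background correction, which draws dim signals together, its log2 change was 0.19 (adjusted p = 0.189). The Fas probes thus did not mark the groups in a single direction.

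GBP transcripts were broadly higher in LPR kidneys. In limma, 11 of the 12 probes were higher and 0 were lower at an adjusted p under 0.05, against 6.53% of all 39924 tested probes called higher and 6.17% called lower. The remaining probe was the brighter probe of Gbp5. By the brightest probe under each gene name, 9 of 10 were higher, against 7.12% of 25805 genes called higher and 5.47% lower. Every name had a probe that was higher. The only probes of Gbp9 and Gbp10 also list Gbp6 transcripts, so their calls cannot be credited to Gbp9 or Gbp10 alone. In 11 of the 12 probes, the same that were called, the lowest LPR mouse exceeded the highest MRL mouse. This was the case for 11.0% of all tested probes. At least a 10-fold rise in the fit was found for 6 probes, against 1.09% of all tested probes. With normexp background correction, which draws dim signals together, this held for 2 probes (Gbp2 and Gbp6), against 0.436% of all. The median log2 change was 3.14 over the 12 family probes, or 2.98 with the dimmer Gbp8 probe at its lower bound, and -0.14 over all tested probes. With normexp it was 1.76 for the family and again -0.14 over all.

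**Figure D1:**
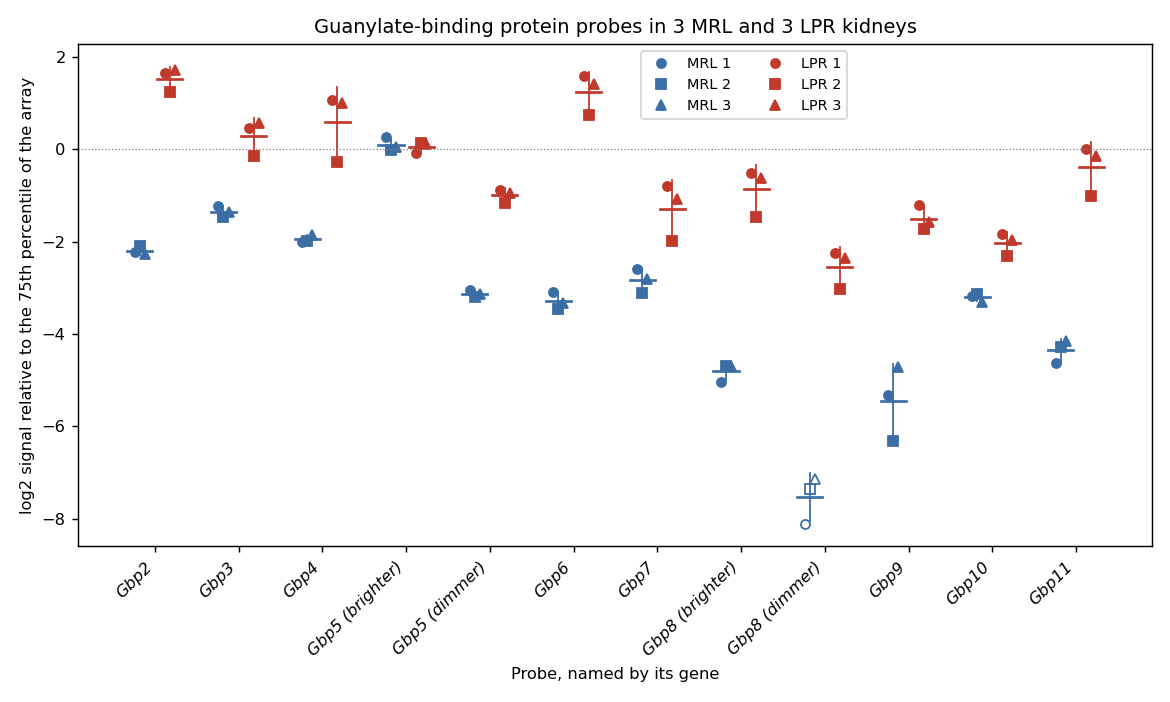
Log2 signal relative to the 75th percentile of the array (y axis) for each family probe (x axis) in 3 MRL mice (blue) and 3 LPR mice (red), with the mean as a horizontal line and the SD as a vertical line. Open symbols mark a group in which no array was well above background, and the groups overlap only for the brighter Gbp5 probe.

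Among the genes of chromosome 3, Gbp2 rose most. Gbp2, a prenylated GBP that coats the vacuoles of Toxoplasma, was measured by the probe A_51_P203955 (mm9 chr3:142300719-142300778, plus strand). It gave -2.22, -2.10 and -2.28 in MRL mice 1 to 3 and 1.65, 1.24 and 1.71 in LPR mice 1 to 3. The MRL mice lay within a narrow band and all LPR mice were far above it. The log2 change was 3.73 (SE 0.15, adjusted p = 2.04e-05), a 13.3-fold rise.

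The other rises on chromosome 3 were smaller. Gbp3 (A_51_P165244, chr3:142236072-142236131) gave -1.23, -1.47 and -1.35 in MRL mice and 0.45, -0.15 and 0.58 in LPR mice, with a log2 change of 1.65 (SE 0.20, adjusted p = 0.00268), or 3.13-fold. Gbp7, which has been tied to the killing of bacteria and the delivery of NADPH oxidase in macrophages, gave -2.60, -3.11 and -2.80 in MRL mice and -0.80, -1.98 and -1.08 in LPR mice (A_51_P463846, chr3:142209379-142209438). For both genes LPR 2 was the LPR mouse nearest to the controls, and the groups did not overlap. The log2 change of Gbp7 was 1.55 (SE 0.31, adjusted p = 0.0213), or 2.92-fold. This was the call that rested most on single mice, since it did not pass without MRL 2 (adjusted p = 0.0676), MRL 3 (adjusted p = 0.0601), LPR 1 (adjusted p = 0.0551) or LPR 3 (adjusted p = 0.0707), nor with all probes tested and no filter on dim ones (adjusted p = 0.0511).

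The Gbp5 probes disagreed. Gbp5 is a prenylated GBP linked to the assembly of inflammasomes. The dimmer probe, that of the RefSeq transcript, gave -3.05, -3.19 and -3.13 in MRL mice and -0.88, -1.16 and -0.95 in LPR mice. The groups were well apart, with a log2 change of 2.13 (SE 0.12, adjusted p = 7.02e-05), or 4.37-fold. The brighter probe gave 0.27, -0.01 and 0.04 in MRL mice and -0.08, 0.13 and 0.11 in LPR mice. Here the groups overlapped, and the log2 change of -0.05 (SE 0.12, adjusted p = 0.830) had a 95% confidence interval from -0.34 to 0.25, which does not reach the change of the dimmer probe. The mean of both probes gave a log2 change of 1.04 (adjusted p = 0.00107), and it was the dimmer probe that moved it.

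Members on chromosome 5 held the largest changes of the family in the main fit. With normexp, Gbp2 of chromosome 3 (log2 change 3.33) came next after Gbp6 (3.77). Gbp6, which like Gbp7 and Gbp10 has been tied to the control of intracellular bacteria in macrophages, was measured by A_52_P189772 (chr5:105700081-105700140, minus strand). It gave -3.09, -3.46 and -3.33 in MRL mice and 1.58, 0.75 and 1.41 in LPR mice. The groups were far apart, with a log2 change of 4.54 (SE 0.23, adjusted p = 5.16e-05), a 23.2-fold rise, or 13.7-fold with normexp.

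Gbp11, a transcribed pseudogene in the RefSeq annotation, gave -4.63, -4.27 and -4.16 in MRL mice and 0.00, -1.01 and -0.14 in LPR mice (A_55_P2042813, chr5:105752145-105752204, minus strand). Its log2 change was 3.97 (SE 0.28, adjusted p = 2.08e-04), or 15.7-fold, and 6.26-fold with normexp. The brighter Gbp8 probe, which also lists Gbp11, gave -5.04, -4.70 and -4.69 in MRL mice and -0.51, -1.46 and -0.63 in LPR mice, a log2 change of 3.94 (SE 0.26, adjusted p = 1.57e-04), or 15.4-fold, and 5.05-fold with normexp. The dimmer probe, which lists Gbp8 alone, exceeded background in 0 of 3 MRL mice and in 3 of 3 LPR mice, at -2.25, -3.03 and -2.36. The rise was at least 10.6-fold (adjusted p = 1.11e-04), so the probe with no Gbp11 transcript in its annotation also rose. With normexp, which gives no such bound, its fitted rise was 3.02-fold, so the bound of 10.6 holds only for the main intensities. For this bound the mean of the LPR mice was divided by that of the MRL mice. Any MRL signal under the detection limit of its array was first lifted to that limit, the dimmest signal called well above background there. A higher limit would give a smaller bound, here and for Fas, Ifng and Gbp2b. The adjusted p beside a bound is that of the limma fit and not of the bound.

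The probe named Gbp9, whose annotation covers 4 genes, also rose. It gave -5.33, -6.31 and -4.71 in MRL mice, of which 2 of 3 were well above background, and -1.20, -1.73 and -1.57 in LPR mice. Its log2 change was 3.95 (SE 0.39, adjusted p = 9.24e-04), or 15.4-fold, and with normexp 1.93 (SE 0.12), or 3.81-fold. The spread of the MRL mice was the widest of the family, with an SD of 0.81.

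Gbp4 and Gbp10 had the smallest log2 changes of the chromosome 5 genes, although with normexp Gbp9 (1.93) was below Gbp4 (2.23). Gbp4 (A_55_P2103837, chr5:105544852-105544911, minus strand) gave -2.00, -1.99 and -1.85 in MRL mice and 1.07, -0.26 and 1.00 in LPR mice. The groups did not overlap, and the log2 change was 2.55 (SE 0.34, adjusted p = 0.00432), or 5.85-fold. Gbp10 (A_55_P1978521, chr5:105644753-105644812, minus strand), whose probe also lists Gbp6, gave -3.18, -3.13 and -3.30 in MRL mice and -1.83, -2.32 and -1.96 in LPR mice. It had the smallest log2 change among the probes that rose, at 1.17 (SE 0.15, adjusted p = 0.00328), or 2.25-fold. The probe of Gbp10, although it lists a Gbp6 transcript, thus changed by 1.17 where that of Gbp6 changed by 4.54.

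In the order of the log2 changes, the dimmer probe stood for Gbp5 and the brighter for Gbp8. For Gbp5 this was the probe that rose and not the brightest, which would place Gbp5 last (-0.05). The dimmer Gbp8 probe, fitted at 4.99 on MRL signals below background, would stand first. Its lower bound of 10.6-fold is under the 23.2-fold of Gbp6. By the probes used, Gbp6 stood first and was 0.57 (SE 0.25) above Gbp11. Gbp11, Gbp9, Gbp8 and Gbp2 followed with gaps of 0.02 (SE 0.52), 0.01 (SE 0.53) and 0.21 (SE 0.20), which were no larger than about 1 standard error. Gbp2 was 1.18 (SE 0.31) above Gbp4, the widest step of the order. Gbp4 and Gbp5 differed by 0.42 (SE 0.36), and Gbp5 was 0.48 (SE 0.15) above Gbp3. The gaps from Gbp3 to Gbp7 (0.10, SE 0.19) and from Gbp7 to Gbp10 (0.38, SE 0.27) were 0.54 and 1.40 standard errors. The standard errors of all gaps came from the differences between neighbouring probes on each array, not from limma. Quantile, median and percentile scaling kept this order, but with normexp it ran Gbp6, Gbp2, Gbp11, Gbp8, Gbp4, Gbp9, Gbp5, Gbp3, Gbp7 and Gbp10, so the places of Gbp2 and Gbp9 depended on the background correction. The median log2 change of the probes that rose was 1.89 for the 4 on chromosome 3 and 3.95 for the 7 on chromosome 5, where Gbp4 and Gbp10 lay below Gbp2 of chromosome 3, and with normexp these medians were 1.51 and 2.23. The difference between the clusters was not tested.

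**Figure D2:**
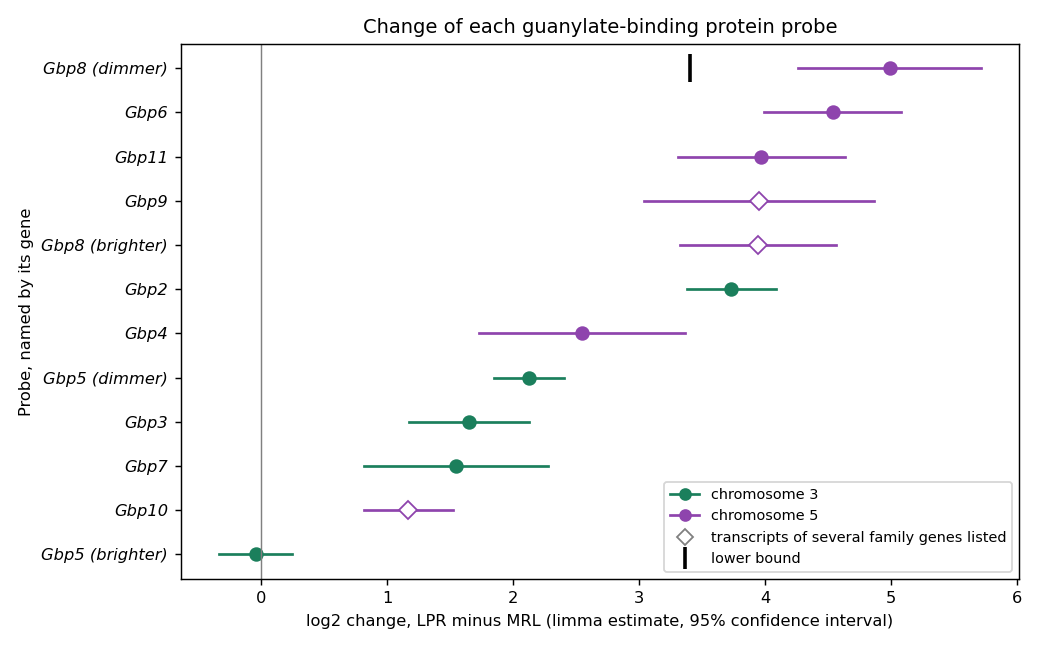
Log2 change of each family probe (x axis, limma estimate as a symbol and 95% confidence interval as a line), ordered by size on the y axis and coloured by chromosome. Diamonds are probes that list transcripts of several family genes, and the black bar is the lower bound of the dimmer Gbp8 probe, whose estimate rests on MRL signals below background. Only the interval of the brighter Gbp5 probe includes 0.

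Within the LPR group, LPR 2 was the lowest of the 3 mice in 11 of the 11 probes that rose, a pattern that was noticed in the values. LPR 2 was the lowest in 34.0% of all tested probes and in 39.0% of the probes called higher. The family probes are not independent, since both Gbp8 probes count and 3 list transcripts of several family genes. LPR 1 and LPR 3 kept no single order, LPR 3 being higher for Gbp2 and Gbp3 and LPR 1 for the other probes that rose. Against the mean of LPR 1 and LPR 3, LPR 2 was lower by between 0.25 (dimmer Gbp5 probe) and 1.30 (Gbp4) on the log2 scale. The count of 11 was the same under quantile normalization, scaling to the median or to a percentile of the detected probes, normexp background correction and the value table of the authors. Without LPR 2, the same number of 11 family probes was called. In the brighter Gbp5 probe, which did not rise, LPR 1 was the lowest.

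**Figure D3:**
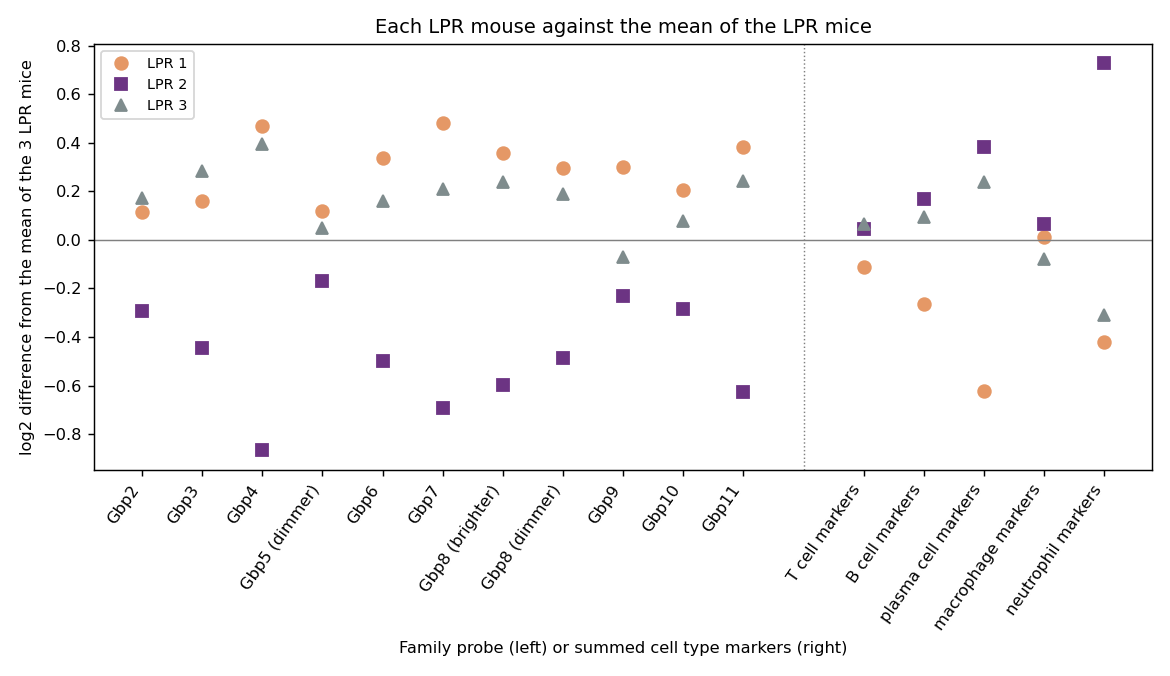
Log2 difference of each LPR mouse from the mean of the 3 LPR mice (y axis) for the 11 family probes that rose (left) and for the summed linear level of marker genes of 5 leukocyte types (right). LPR 2 (squares) lies lowest for each of these family probes and lowest for none of the 5 marker sums.

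Marker genes of leukocytes were also higher in LPR kidneys. Of the marker genes tested, 3 of 4 were higher for T-cells, 3 of 4 for B-cells, 3 of 3 for plasma cells, 5 of 5 for macrophages and 2 of 3 for neutrophils. Of all genes by the brightest probe, 7.12% were called higher and 5.47% lower. Relative to the 75th percentile on the linear scale, the summed macrophage markers ranged from 22.3 to 30.4 in MRL mice and from 111 to 123 in LPR mice, and the T-cell markers from 2.26 to 2.61 and from 5.49 to 6.21. B-cell markers ranged from 0.598 to 0.811 in MRL mice and from 3.47 to 4.67 in LPR mice, plasma cell markers from 2.34 to 4.33 and from 46.0 to 92.6, and neutrophil markers from 1.87 to 2.48 and from 5.15 to 11.4. For each of these lists the groups did not overlap, and every tested marker was above background in some mice. The LPR mouse with the lowest sum was LPR 1 for T-cell, B-cell, plasma cell and neutrophil markers and LPR 3 for macrophage markers. A linear sum follows its brightest genes. Of the single markers called higher, LPR 2 was lowest in 1 for macrophages and 0 for T-cells, B-cells, plasma cells and neutrophils. Among the other lists, 0 of 1 tested NK cell marker, 0 of 4 endothelial, 0 of 6 tubule and 0 of 2 podocyte markers were higher. Lower in LPR mice were the brighter probe of the B-cell marker Ms4a1 (-0.70, adjusted p = 0.0497), the endothelial receptor Kdr (-0.57, adjusted p = 0.0317) and the tubule receptor Lrp2 (-0.39, adjusted p = 0.0492), which are named after their values were seen. The dimmer Ms4a1 probe was higher (4.99, adjusted p = 0.00281). The part of these cells in the rise of the GBPs was not tested.

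Upstream of the family, genes of interferon gamma signalling were higher in LPR kidneys for 6 of 9 tested genes, with 0 lower, against 7.12% of all genes higher and 5.47% lower. Ifng, the cytokine itself, exceeded background in 0 of 3 MRL mice and in 3 of 3 LPR mice, at -1.85, -1.98 and -1.91, a rise of at least 16.4-fold (adjusted p = 2.77e-04). The transcription factor gene Irf1 gave 3.92, 3.87 and 3.82 in LPR mice 1 to 3, a log2 change of 2.44 (SE 0.13, adjusted p = 7.15e-05). The 3 LPR mice spanned 0.12 for Ifng and 0.09 for Irf1, and between 0.29 (dimmer Gbp5 probe) and 1.34 (Gbp4) for the family probes that rose. The smallest change called was that of the receptor chain Ifngr2, at 0.62 (SE 0.10, adjusted p = 0.00883).

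In type I interferon signalling 4 of 8 tested genes were higher and 0 lower, against 7.12% and 5.47% of all genes. Ifnb1 was too dim to be tested. Irf7 had the largest change of those called (1.40, SE 0.14, adjusted p = 9.51e-04) and Stat2 the smallest (0.59, SE 0.12, adjusted p = 0.0223). The median log2 change was 0.55 in this list and 1.57 in the interferon gamma list. LPR 2 was the lowest LPR mouse in 0 of the 4 genes called here and in 2 of the 6 called in the interferon gamma list.

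The other interferon-inducible GTPases, which act with the GBPs on vacuole membranes or against viruses, were higher in 10 of 10 tested genes. The share of all genes called higher was 7.12%. Iigp1, an immunity-related GTPase, had the largest rise (log2 change 5.03, SE 0.24, adjusted p = 4.07e-05) and Mx2, an antiviral GTPase, the smallest (0.59, SE 0.14, adjusted p = 0.0350). Gbp2b, a further GBP gene of the chromosome 3 cluster that is not among the 10, was above background only in LPR mice and at least 2.49-fold higher (adjusted p = 6.08e-05). The median log2 change of this list was 3.24, or 3.19 with Gbp2b at its bound. LPR 2 was the lowest LPR mouse in 9 of these 10 genes.

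Among partners of GBPs in inflammasomes and caspase activation, 7 of 8 tested genes were higher and 0 were lower. Of all genes, 7.12% were higher and 5.47% lower. Casp1, the caspase that matures interleukin 1 beta, had the largest rise (2.71, SE 0.22, adjusted p = 3.61e-04), and Il18, a cytokine that caspase-1 matures, the smallest (1.11, SE 0.15, adjusted p = 0.00390). LPR 2 was the lowest LPR mouse in 4 of the 7 genes called. The genes of the autophagy conjugation machinery, which is needed to bring GBPs and related GTPases to parasite vacuoles, had 0 of 12 called in either direction, with a median log2 change of -0.05. Of 6 prenylation enzymes, the group that attaches and trims the lipid anchor, Fntb, the farnesyltransferase beta subunit, was the 1 gene called by its brightest probe, with a log2 change of 0.50 (SE 0.12, adjusted p = 0.0460). A dimmer probe of Icmt, the methyltransferase of prenylated proteins, was lower (-0.46, adjusted p = 0.0497) while its brighter probe was not called. Over the 6 lists and by the brightest probe, 28 of 53 tested genes were higher and 0 lower, against 7.12% and 5.47% of all genes. The lists were chosen with earlier results of these arrays known, so these counts describe the named genes.

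**Figure D4:**
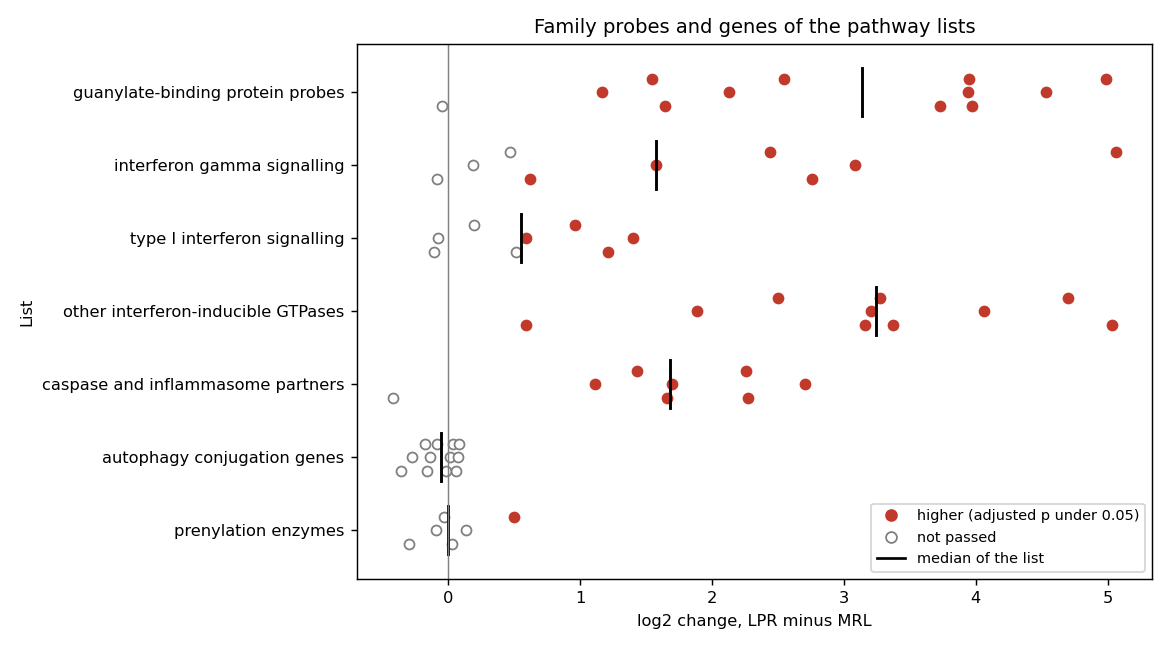
Log2 change (x axis) of the 12 family probes and of the tested genes in 6 pathway lists (y axis), 1 point a probe or gene, filled where the adjusted p was under 0.05, with the median of each list as a black line. Ifng, Gbp2b and the dimmer Gbp8 probe are drawn at their fitted values, which rest on MRL signals below background. The family and the other interferon-inducible GTPases reach the largest medians, 3.14 and 3.24, and the autophagy genes lie around 0.

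The 5 genes outside the family whose signal ran most like the mean of the members over the 6 mice were Gm12250, C130026I21Rik, Cyp4v3, 9330175E14Rik and Cd274, each with a Pearson correlation of 0.999. Of 25625 genes compared, 132 had a correlation of at least 0.99, and the points share the 2 groups and the array of each mouse. All 5 were higher in LPR mice, with log2 changes between 0.68 (Cyp4v3) and 3.44 (9330175E14Rik). Their rise and LPR 2 as their lowest LPR mouse follow from how they were chosen.

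The promoters of 4 of the 10 members were at hand from RefSeq (build GRCm38.p6, 250 bases before and 50 from the transcript start), those of Gbp2, Gbp3 with 2 starts, Gbp5 and Gbp7, all on the plus strand of chromosome 3. Those of Gbp4, Gbp6, Gbp8, Gbp9, Gbp10 and Gbp11 were not used here. The promoters were searched on both strands for the gamma activated site TTCNNNGAA and for the interferon stimulated response element core, which reads GAAA, any 2 bases and GAAA. Both are known elements of interferon-responsive promoters. Those of the member with the largest rise on this chromosome and of the 2 members with both motifs are shown, with the matches in capitals.
Gbp2 promoter, chr3:142620413-142620712, plus strand: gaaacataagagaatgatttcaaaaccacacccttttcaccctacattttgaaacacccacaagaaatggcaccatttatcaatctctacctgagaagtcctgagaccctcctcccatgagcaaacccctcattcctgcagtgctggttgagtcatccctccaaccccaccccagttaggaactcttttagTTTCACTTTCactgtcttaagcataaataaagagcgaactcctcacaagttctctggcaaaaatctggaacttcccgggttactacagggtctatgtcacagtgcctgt
Gbp5 promoter, chr3:142496684-142496983, plus strand: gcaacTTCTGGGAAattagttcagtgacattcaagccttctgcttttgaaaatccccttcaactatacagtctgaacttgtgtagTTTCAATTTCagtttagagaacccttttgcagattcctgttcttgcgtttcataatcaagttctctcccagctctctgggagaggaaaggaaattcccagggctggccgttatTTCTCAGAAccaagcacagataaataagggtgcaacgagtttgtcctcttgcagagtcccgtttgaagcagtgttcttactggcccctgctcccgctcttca
Gbp7 promoter, chr3:142530086-142530385, plus strand: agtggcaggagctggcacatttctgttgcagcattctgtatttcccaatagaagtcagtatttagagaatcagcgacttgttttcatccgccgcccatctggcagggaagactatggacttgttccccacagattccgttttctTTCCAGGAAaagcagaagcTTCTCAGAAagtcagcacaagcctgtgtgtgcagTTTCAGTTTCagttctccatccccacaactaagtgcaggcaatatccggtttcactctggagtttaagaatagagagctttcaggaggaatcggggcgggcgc
The response element core was present in 4 of the 5 promoters, against 3.44% of 32851 promoters of the same length, each time as its reverse complement. In Gbp2 it lay 59 to 50 bases before the start, in Gbp7 53 to 44 and in Gbp5 165 to 156 bases before, and the first Gbp3 promoter held 2 overlapping matches from 45 to 30 bases before, while the second held none. The gamma activated site was matched in 2 of the 5 promoters, against 8.3% of all, with 2 matches each in Gbp5 (245 to 237 and 52 to 44 bases before the start) and in Gbp7 (106 to 98 and 87 to 79). Both motifs together were in 0.454% of all promoters, and in none of these promoters did matches of the 2 motifs overlap. A match is a description of letters and not a measured binding site.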

How the data were processed

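Total RNA of whole kidneys was labelled with Cy3 and hybridised to 6 Agilent SurePrint G3 mouse arrays. For each spot the authors deposited the background-subtracted intensity of Feature Extraction 12.0.3.1 (per the labels), without normalization between arrays, and a value table that holds each intensity as a ratio to a percentile of its array. The median of this deposited ratio was 0.0818 to 0.0883 per array. It is centred on no gene, and its scale is linear.

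Here log2 intensities minus the 75th percentile of each array were used. The array holds 56605 probes, and limma 3.58.1 (R 4.3.3) was run on the 39924 that at least 3 of the 6 arrays showed well above background. P-values were adjusted by Benjamini-Hochberg over these. A gene was represented by its brightest tested probe. An exact test of 3 against 3 mice could not reach 0.05 and is not given. The number of arrays limits the precision. No spot of a member was an outlier or saturated, and each member had 1 spot per probe. The steps were tested on simulated data. Members and lists were chosen with earlier results of these data known. Genes outside the family were named if they had the largest or smallest called change of a pathway list, were called lower in one, were Fas, Ifng or Irf1, or were the 5 most like the family mean. Some items that the counts include are not reported here. The promoters and gene names are those of RefSeq. Plots were made in python 3.11.15 with matplotlib 3.10.9.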

Additional observations from a re-analysis of the deposited data

How the results depend on the processing

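Between 9 and 11 of the 12 family probes were called higher over 21 alternatives, and between 7 and 10 of the 10 genes and between 24 and 30 pathway genes over 22, and 0 members were called lower. Without 1 mouse at a time these counts were 10 to 11, 8 to 9 and 25 to 27. The lowest counts, 9 probes and 7 genes, came from the methods' test on log2 values with adjustment, under which Gbp4 (adjusted p = 0.0525) and Gbp7 (adjusted p = 0.103) did not pass. A filter on all 6 arrays also left 9 probes, since it removed Gbp9 and the dimmer Gbp8 probe. Gbp7 (log2 change 1.55) also did not pass with the slide column as a block (1.32, adjusted p = 0.0640), without the filter on dim probes (adjusted p = 0.0511), nor in 4 of the 6 fits without 1 mouse, whose log2 changes ranged from 1.30 to 1.89. The brighter Gbp5 probe, which did not pass, ran from -0.10 to 0.040 without 1 mouse, being positive without MRL 1 (0.040) or LPR 1 (0.021), and the mean of the Gbp5 probes was 1.04. Pathway genes called lower were 1 under normexp background correction (Zmpste24) and 2 by the methods' test without adjustment (Atg12 and Zmpste24). Other scalings moved the median log2 change of all probes from -0.14 to between -0.14 and -0.11. A pairing of the mice by replicate number was not shown, and these values cannot exclude it. The deviations of same-numbered mice correlated by 0.115, 0.0203 and 0.00516, and those of differently numbered mice by -0.0672 to 0.0510. With the number as a replicate block, 11 probes, 9 genes and 25 pathway genes were called. With the slide row as a block, 11 probes and 9 genes were called, and this value sets LPR 1 against the MRL mice of its row. The brighter Fas probe passed in no alternative (-0.64 to -0.20), and the dimmer passed in 9 of 20, with adjusted p from 0.00348 to 0.0984 without 1 mouse. Normexp kept all 11 probe calls but lowered the folds of the dim probes most. The largest drop, by 10.5 times, was in the dimmer Gbp8 probe, whose fitted fold rests on MRL signals below background. It was 4.05 times for Gbp9, 3.04 for the brighter Gbp8 probe, 2.50 for Gbp11 and 1.70 for Gbp6.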
